A study of Mus musculus with 4 samples.

Results

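The 10 genes described here encode secreted or membrane-bound metalloproteases that cut the extracellular matrix, Adamts1, Adamts4, Adamts5, Mmp2, Mmp3, Mmp13 and Mmp14, and the tissue inhibitors of metalloproteases Timp1, Timp2 and Timp3. They were taken by gene symbol with every probe set that the platform annotation gives to that symbol alone, 22 of the 22690 probe sets on the array and 10 of 12393 genes. The choice of these genes drew on earlier results from the same 4 arrays, so all values below are a description and carry no test. RNA came from CH10T1/2 cells, mouse embryonic fibroblasts able to form cartilage, bone, fat and muscle, and was hybridised to 4 arrays of the type Affymetrix Mouse Genome 430A 2.0, 1 per group. The groups were the R150C line with PTHrP, the R150C line with carrier, the WT line with PTHrP and the WT control. The R150C line is stably transfected with the R150C variant of PTHR1, the receptor for PTH and PTHrP, found in enchondromas (benign cartilage tumours), and the WT line with the wild-type receptor. All cells were kept without serum overnight, and PTHrP was given at 1e-07 M for 1 h. The sample labels of the WT control do not name carrier, which the series text gives for untreated cells. Each receptor is represented by 1 transfected line, and the labels do not say whether it is a clone or a pool, so receptor and line cannot be told apart.

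Adamts proteases of the aggrecanase group cut aggrecan and versican, the large proteoglycans that let cartilage hold water. Matrix metalloproteases cut collagens and other matrix proteins: Mmp14 is anchored in the cell membrane and activates pro-Mmp2, Mmp3 is a stromelysin, and Mmp13 is a collagenase of hypertrophic cartilage. Timps bind the active site of these enzymes, and Timp3, which stays bound to matrix, also inhibits Adamts4 and Adamts5. Activity is also set after translation, so transcript signals alone give no measure of proteolysis, which was not measured here.

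Signal below is the deposited fluorescence intensity of a probe set on a linear scale. A difference is taken between values of log2(signal + 16), once the median of the array (control probe sets left out) has been subtracted. The probe set with the highest mean on that scale stands for its gene, and a gene counts as kept when that mean reaches the median over genes, which corresponds to a signal of 62.6. Of the 12393 genes 6197 were kept, and of the 10 genes 7. Adamts4, Mmp3 and Mmp13 lay under the filter on all 4 arrays, and the table has no detection calls. There are no replicates. As a measure of spread, the departure from additivity of receptor and treatment over the 6197 kept genes corresponds to an SD of 0.25 (log2) for a difference between a pair of arrays. A difference of at least 2-fold is a difference of at least 1 on this scale. The kept genes as a whole had a median difference of 0.05 for PTHrP against carrier in R150C cells, of 0.22 for PTHrP against control in WT cells and, in R150C minus WT, of 0.08 in control medium and -0.07 with PTHrP.

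The WT control array stood apart in the control probe sets for transcript length of Gapdh and beta-actin, the brightest 2 of the 5 control transcripts. Its ratio of 3' to 5' signal was 0.845 for Gapdh and 1.42 for beta-actin, while the other 3 arrays lay between 0.991 and 1.21 for Gapdh and between 2.13 and 2.39 for beta-actin. Of the dim 3, each with a probe set at 23.8 or less on some array, the WT control ratio was lower than the others for pyruvate carboxylase (1.06, against 2.78 to 3.37) and within them for 18S RNA (3.82) and the transferrin receptor (2.73). The comparison of the lines under PTHrP does not use that array, and is given beside the comparison in control medium throughout. Of 10 fibroblast markers 9 were kept, all but Dcn. Of 7 chondrocyte markers 2 were kept, Col2a1 (1105.9 to 1481 on the 4 arrays) and Sox9 (112.4 to 200). The 23 markers of neurons, epithelium, endothelium and macrophages had a median signal of 19.2 and 21.1 in the R150C line (PTHrP, carrier) and 15 and 24 in the WT line (PTHrP, control), and 2 of them were kept. The Pth1r probe set read between 3.2 and 3.9 on the 4 arrays, so the transfected receptor was not followed.

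**Figure D1:**
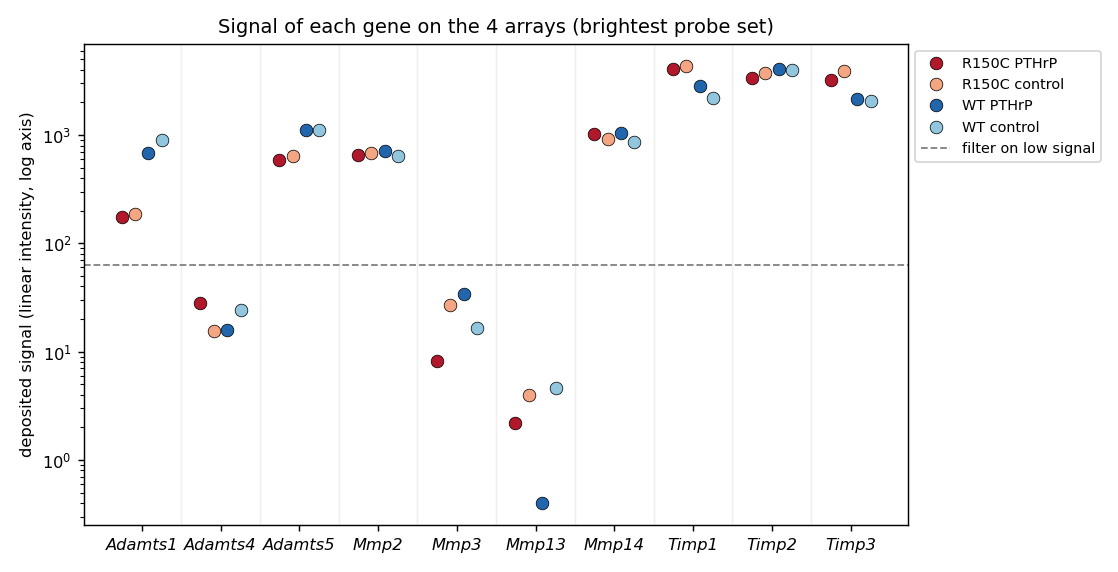
Deposited signal (linear intensity, log axis) of the brightest probe set of each of the 10 genes on the 4 arrays, 1 point per array, with the filter level of 62.6 as a dashed line. Adamts1 and Adamts5 sit lower on both R150C arrays than on both WT arrays, Timp1 and Timp3 sit higher, and Adamts4, Mmp3 and Mmp13 sit under the filter.

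Adamts1, a secreted aggrecanase and versicanase with antiangiogenic repeats, was the member furthest from 0 in the comparison of the lines. Its signal was 176.2 with PTHrP and 186.2 with carrier in the R150C line, against 677.2 with PTHrP and 907.5 in control medium in the WT line. Both R150C arrays lay far below both WT arrays. The difference R150C minus WT was -2.10 in control medium and -1.88 under PTHrP (log2). The ratio of the deposited signals, R150C over WT, without centring or pseudocount, was 0.205 and 0.26. Their mean of -1.99 was the third lowest among the 6197 kept genes. Of those genes 0.565% were at least 2-fold lower in control medium, 0.726% under PTHrP and 0.323% in both media. Of the 7 kept members Adamts1 alone was at least 2-fold lower in each medium. It has 1 probe set on the array, so no second probe set can be set beside it.

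Adamts5, the main aggrecanase of mouse cartilage, was also lower in the R150C line. Its brighter probe set read 587.9 with PTHrP and 639.8 with carrier in the R150C line, against 1118 with PTHrP and 1108.9 in control medium in the WT line. The second probe set read 156.9 and 169.5 in the R150C line (PTHrP, carrier) and 306.7 and 334.9 in the WT line (PTHrP, control). In both probe sets the R150C arrays lay below the WT arrays. The differences between the lines were -0.69 and -0.83 in control medium and -0.93 and -0.93 under PTHrP, short of 2-fold in each. Over both media the brighter probe set averaged -0.81 and was the 57th lowest of the 6197 kept genes.

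Adamts4, an aggrecanase induced by inflammatory cytokines, read 28.4 and 15.6 in the R150C line (PTHrP, carrier) and 15.9 and 24.2 in the WT line (PTHrP, control), and its other probe set lay between 1.3 and 3.5. The arrays of the lines overlap, and no order can be read at this signal.

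The promoters of the 3 members at least 2-fold apart between the lines in control medium (Adamts1, Timp1 and Timp3) and of Mmp13, known as a target of AP-1 and Runx2, are shown from RefSeq, build GRCm38.p6, from 250 bases before to 50 bases after the start, on the strand of the gene. Capitals mark the matches, on either strand, to 6 motifs. The AP-1 motif, which Fos and Jun proteins bind, was searched with the letters TGANTCA. The cAMP response element, or CRE, which is bound by CREB downstream of Gs-coupled receptors, was searched with the letters TGACGTCA. Its short form, called the CRE core here and contained in every full CRE, was searched with the letters TGACG. The motif of the RUNX family of bone and cartilage factors was searched with the letters TGTGGT. The GC box, a common promoter element bound by Sp1, was searched with the letters GGGCGG. The TATA motif found near many start sites was searched with the letters TATAAA.
Adamts1 chr16:85803064-85803363, minus strand: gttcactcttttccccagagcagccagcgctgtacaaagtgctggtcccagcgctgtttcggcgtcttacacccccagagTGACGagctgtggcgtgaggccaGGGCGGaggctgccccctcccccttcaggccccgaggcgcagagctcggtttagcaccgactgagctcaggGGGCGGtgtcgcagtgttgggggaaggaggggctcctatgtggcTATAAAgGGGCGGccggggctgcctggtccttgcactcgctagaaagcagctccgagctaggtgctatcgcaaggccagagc
Mmp13 chr9:7272264-7272563, plus strand: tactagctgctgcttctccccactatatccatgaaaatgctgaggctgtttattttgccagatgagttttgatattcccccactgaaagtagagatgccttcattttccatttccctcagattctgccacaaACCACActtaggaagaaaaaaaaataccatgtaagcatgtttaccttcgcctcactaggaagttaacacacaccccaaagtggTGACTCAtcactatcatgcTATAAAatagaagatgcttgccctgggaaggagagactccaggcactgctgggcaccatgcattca
Timp1 chrX:20869916-20870215, plus strand: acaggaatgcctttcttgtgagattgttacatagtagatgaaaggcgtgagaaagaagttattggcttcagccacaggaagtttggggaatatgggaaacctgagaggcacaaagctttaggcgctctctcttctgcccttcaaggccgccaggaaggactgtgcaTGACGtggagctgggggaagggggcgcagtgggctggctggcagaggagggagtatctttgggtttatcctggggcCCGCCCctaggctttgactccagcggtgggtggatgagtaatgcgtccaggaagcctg
Timp3 chr10:86300162-86300461, plus strand: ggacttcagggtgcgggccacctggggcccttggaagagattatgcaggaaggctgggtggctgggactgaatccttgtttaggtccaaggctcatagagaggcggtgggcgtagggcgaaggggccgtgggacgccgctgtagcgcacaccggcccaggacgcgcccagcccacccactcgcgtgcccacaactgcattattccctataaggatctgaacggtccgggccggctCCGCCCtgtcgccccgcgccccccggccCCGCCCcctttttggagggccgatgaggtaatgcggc
Adamts1 holds 1 CRE core at -170, 3 GC boxes and a TATA match at -32, counted from the start. Mmp13 holds 1 AP-1 match at -35, 1 RUNX match at -118 and a TATA match. Timp1 holds 1 CRE core at -84 and 1 GC box, and Timp3 holds 2 GC boxes. Of the 10 genes 7 had a promoter listed, and 2 of these held an AP-1 match (Mmp3 and Mmp13), 2 a CRE core, 0 a full CRE, 2 a RUNX match, 5 a GC box and 3 a TATA match. Among all 32851 promoters listed, 7.81% held AP-1, 20.8% the CRE core, 1.79% the full CRE, 16.8% RUNX, 35.7% the GC box and 13.6% TATA. A match is a description of the letters and not a bound site. Variants of a motif were not searched, such as TGAGTAA in the Timp1 sequence, which differs from TGANTCA in 1 letter. A promoter without a match is therefore not shown to lack the element.

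**Figure D2:**
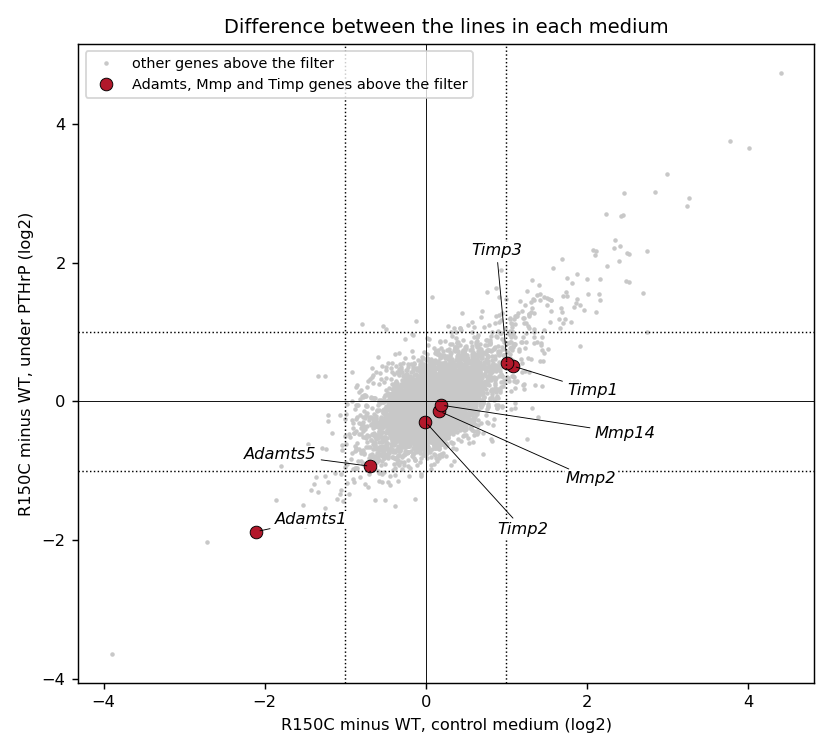
Difference between the R150C and WT lines in control medium (horizontal) and under PTHrP (vertical), log2, for the 6197 kept genes (grey) and the 7 kept Adamts, Mmp and Timp genes (red), with dotted lines at 2-fold. Adamts1 lies at -2.10 and -1.88, Timp1 and Timp3 lie to the right just past 2-fold in control medium and short of it under PTHrP, and Mmp2, Mmp14 and Timp2 lie near the centre.

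The matrix metalloproteases above the filter differed little between the lines. Mmp2, the gelatinase that Mmp14 activates, read 657.2 and 679.6 in the R150C line (PTHrP, carrier) and 713.3 and 643 in the WT line (PTHrP, control). The arrays of the lines overlap, with differences between the lines of 0.17 in control medium and -0.14 under PTHrP. Its second probe set gave 0.17 and -0.11. Mmp14, the membrane-bound activator, read 1017.5 and 918.6 in the R150C line and 1037.7 and 857 in the WT line in the same order, with differences of 0.19 in control medium and -0.05 under PTHrP. The other Mmp14 probe set read 172.2 and 235.2 in the R150C line and 210.2 and 296.2 in the WT line, and gave -0.22 and -0.29. Of these 8 differences 7 were smaller than the spread of 0.25 given above, and the last was larger.

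Mmp3 and Mmp13 could not be ordered. Mmp3, a stromelysin that fibroblasts make in response to cytokines, read 8.2 with PTHrP and 27.2 with carrier in the R150C line, against 34.1 with PTHrP and 16.6 in control medium in the WT line. Mmp13 lay between 2.2 and 4 in the R150C line and between 0.4 and 4.6 in the WT line. Both genes stayed under the filter on every array.

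Of the inhibitor genes, Timp1 and Timp3 were higher in the R150C line and Timp2 was not. Timp1, an inducible secreted inhibitor that also acts as a growth factor, read 4088.4 with PTHrP and 4352.1 with carrier in the R150C line, against 2814.3 with PTHrP and 2187.4 in control medium in the WT line. Both R150C arrays lay above both WT arrays. The difference was 1.08 in control medium and 0.51 under PTHrP. The ratio of the deposited signals, without centring or pseudocount, was 1.99 and 1.45 in the same order. Timp1 passed 2-fold in control medium by a small margin, and stood at 0.99 without centring and 0.96 when centred on the kept genes. It has 1 probe set.

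Timp3, the matrix-bound inhibitor, was higher in the R150C line in most of its probe sets. The brightest read 3244.4 with PTHrP and 3924.9 with carrier in the R150C line, against 2172.2 with PTHrP and 2069 in control medium in the WT line. Both R150C arrays lay above both WT arrays, with differences of 1.01 in control medium and 0.55 under PTHrP. The next probe set, 1419089_at, read 2185.9 and 2150.3 in the R150C line (PTHrP, carrier) and 1059.6 and 1491.6 in the WT line (PTHrP, control), with differences of 0.61 and 1.01. The 2 dimmer probe sets gave 0.18 and -0.13 in control medium and 0.52 and 0.72 under PTHrP. Over the 4 probe sets the difference was 0.42 ± 0.50 in control medium and 0.70 ± 0.22 under PTHrP (mean and SD over probe sets of the same arrays, which are not replicates). All 4 were above 0 under PTHrP and 3 of 4 in control medium. With the mean of all probe sets Timp3 stood at 0.42 in control medium, and no longer passed 2-fold. Its brightest probe set was also short of 2-fold there under other settings. It stood at 0.92 without centring, 0.89 when centred on the kept genes, 0.89 after quantile normalization and 0.95 with a pseudocount of 64.

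Timp2, a constitutive inhibitor that also takes part in the activation of pro-Mmp2 by Mmp14, has 6 probe sets, 5 of them above the filter, and they disagreed in control medium. The brightest read 3348 and 3700.7 in the R150C line (PTHrP, carrier) and 4036.3 and 3956 in the WT line (PTHrP, control), with differences of -0.01 in control medium and -0.29 under PTHrP. The probe set 1420924_at read 134.7 and 217.9 in the R150C line and 211.5 and 968.3 in the WT line in the same order. Its differences were -1.98 in control medium and -0.62 under PTHrP, and the WT control array alone was high. Over the 5 probe sets the difference between the lines ran from -1.98 to 0.33 in control medium and from -0.62 to -0.19 under PTHrP, where all 5 were below 0. In all 2081 genes with more than 1 probe set above the filter, the median range over a gene's probe sets was 0.34 in control medium and 0.29 under PTHrP, and 95% of these ranges were at most 1.09 and 0.90. The range for Timp2 in control medium therefore lay above the 95th percentile of such genes, as did that of Timp3 (-0.13 to 1.01). These genes were not matched to Timp2 or Timp3 for the number of probe sets, with which a range can grow. The low Gapdh and beta-actin ratios of the WT control array were given above, and their part in this spread was not tested.

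**Figure D3:**
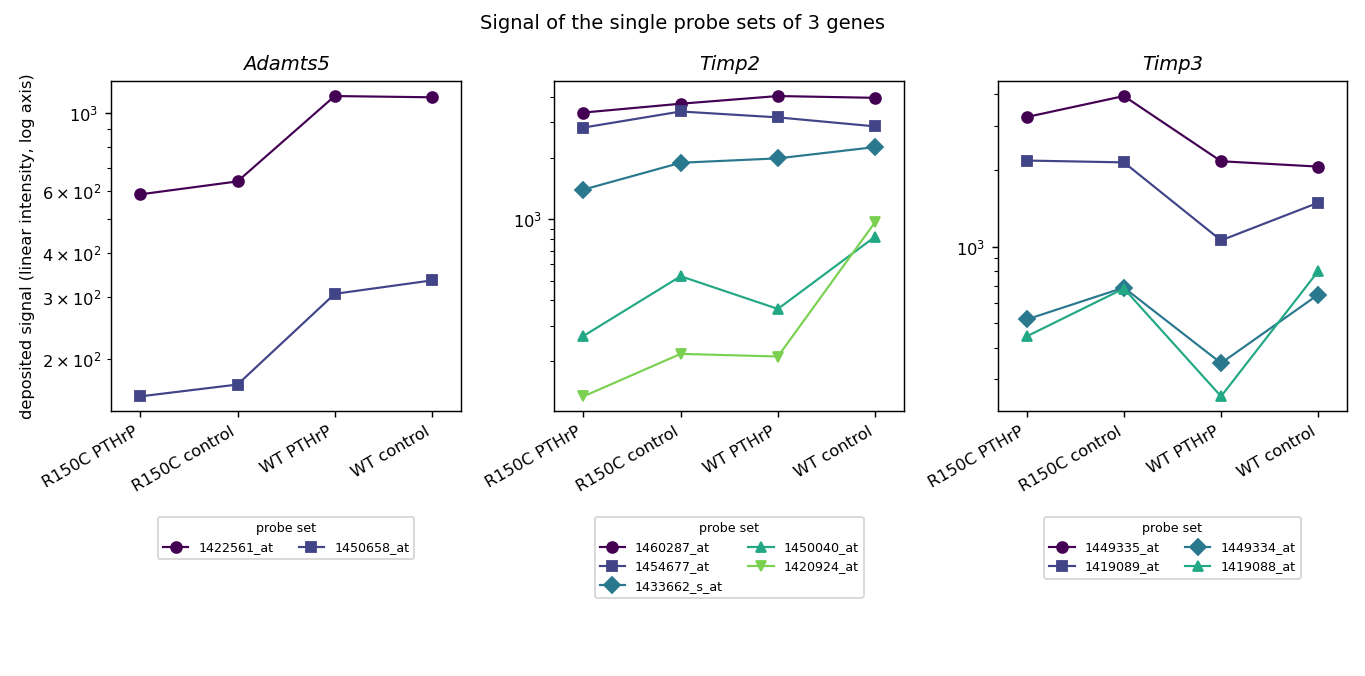
Deposited signal (linear intensity, log axis, scaled for each panel) on the 4 arrays for each probe set above the filter of Adamts5, Timp2 and Timp3, with lines joining the values of 1 probe set. Both Adamts5 probe sets lie lower on the R150C arrays than on the WT arrays, while Timp2 1420924_at reads 968.3 on the WT control array and between 134.7 and 217.9 on the other 3.

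As a group, the 7 kept members had a median difference between the lines of 0.17 in control medium and -0.14 under PTHrP, beside 0.08 and -0.07 over all kept genes. Timp1 and Timp3 were the 2 past 2-fold upwards in control medium and Adamts1 the 1 downwards, while under PTHrP these counts were 0 and 1. Upwards of 2-fold lay 2.87% of all kept genes in control medium and 2.16% under PTHrP. Since the members were chosen on these contrasts, nothing is read from their counts.

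After 1 h of PTHrP no kept member differed 2-fold in either line in its brightest probe set. Past 2-fold lay 0.21% of kept genes upwards and 0.0161% downwards in the R150C line, and in the WT line 0.274% and 0.0968%. The 7 kept members had a median difference of -0.04 in the R150C line, with a range from -0.22 (Timp3) to 0.20 (Mmp14). In the WT line the median was 0.24, with a range from -0.25 (Adamts1) to 0.53 (Timp1). The shift of all kept genes was 0.05 in the R150C line and 0.22 in the WT line, beside which these values should be read. Adamts1 differed by -0.02 in the R150C line and -0.25 in the WT line. Adamts5 differed by -0.07 and 0.18 in the same order, Mmp2 by 0.01 and 0.31 and Mmp14 by 0.20 and 0.44. Timp1 differed by -0.04 in the R150C line and 0.53 in the WT line, where quantile normalization gave 0.21. These PTHrP comparisons share their carrier and control arrays with the comparison of the lines in control medium.

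Probe sets of Mmp14, Timp2 and Timp3 disagreed after PTHrP. The dimmer Mmp14 probe set, 1416572_at, differed by -0.36 in the R150C line and -0.30 in the WT line, against 0.20 and 0.44 for the brighter one, and the mean of both was -0.08 and 0.07. Timp3 1419088_at read 443.4 with PTHrP against 684.6 with carrier in the R150C line, and 257.3 with PTHrP against 802.3 in control medium in the WT line, with differences of -0.56 and -1.41. Timp2 1420924_at differed by -0.58 in the R150C line and -1.95 in the WT line, and 1450040_at by -0.88 and -0.98. The brightest probe sets of the same genes differed by -0.22 and 0.24 (Timp3) and -0.09 and 0.20 (Timp2) in the same order. Among the probe sets above the filter, 3 of 4 for Timp3 and 3 of 5 for Timp2 were below 0 in the WT line. In the R150C line 3 of 4 and 5 of 5 were below 0. Of all 9161 probe sets above the filter 91 (0.993%) were at least 2-fold lower with PTHrP in the WT line, against 4 (0.0437%) in the R150C line. Of the 91, 6 stand for their gene, while 6197 of the 9161 do. Member genes hold 2 of the 91, Timp2 1420924_at and Timp3 1419088_at. The Gapdh and beta-actin 3' to 5' ratios of both PTHrP arrays were above those of the array without PTHrP of the same line, at 1.21 against 0.991 in the R150C line and 1.17 against 0.845 in the WT line for Gapdh. Of the dim controls, pyruvate carboxylase and the transferrin receptor ran the other way in the R150C line and 18S RNA in the WT line, and the part of these ratios in the differences was not tested. Averaged over all probe sets of each gene, the WT difference stood at -0.55 for Timp3 and -0.45 for Timp2.

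**Figure D4:**
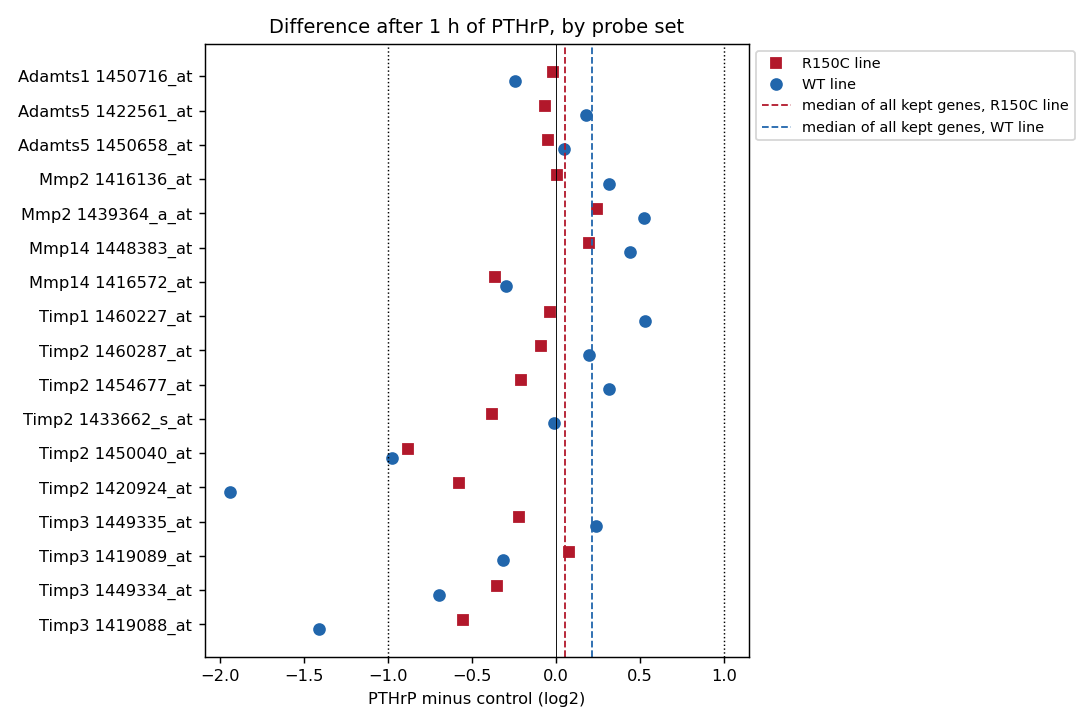
Difference between PTHrP and control arrays (log2) in the R150C line (red squares) and the WT line (blue circles) for the 17 probe sets above the filter, with the median of all kept genes dashed and 2-fold dotted. Timp2 1420924_at (-1.95) and Timp3 1419088_at (-1.41) lie past 2-fold in the WT line, and every other point lies inside.

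In its brightest probe set, each kept member had responses to PTHrP that differed by less than 2-fold between the lines. The difference of the responses, R150C line minus WT line, ran from -0.57 (Timp1) to 0.23 (Adamts1) with a median of -0.29, beside -0.16 over all kept genes, of which 0.403% were at least 2-fold apart upwards and 0.645% downwards. Timp2 1420924_at stood at 1.36. The sign for Timp2 and Timp3 was not stable: their brightest probe sets gave -0.29 and -0.46, and the mean over probe sets 0.08 and 0.29. After quantile normalization the brightest probe sets gave 0.04 for Timp2, -0.17 for Timp3 and -0.27 for Timp1.

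Few other genes of the Adamts and Mmp families passed the filter. Of 22 other Adamts and Adamts-like genes 7 were on the array and 2 were kept, and of 19 other Mmp genes 14 and 1. All 11 genes of the Adam list were on the array and 6 were kept. Adam19, a membrane-bound sheddase, was the one kept gene of these lists and of the other inhibitors at least 2-fold apart in both media, against 1.61% of all kept genes that were higher in both. It read 295.9 and 314.6 in the R150C line (PTHrP, carrier) and 93.1 and 108.1 in the WT line (PTHrP, control), with differences of 1.503 and 1.49 in control medium and under PTHrP. Over the 11 kept genes of these 4 lists the median difference was 0.32 in control medium and -0.07 under PTHrP, and 0 were at least 2-fold lower. After PTHrP 0 of the 11 differed 2-fold in either line.

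Of the other inhibitors, Reck, a membrane-anchored inhibitor of Mmp9, Mmp2 and Mmp14, read 49.3 and 93.2 in the R150C line (PTHrP, carrier) and 105.1 and 77.8 in the WT line (PTHrP, control). The R150C PTHrP array was the low one, with differences between the lines of 0.31 in control medium and -0.92 under PTHrP. Timp4 read 39.8 and 37.6 in the R150C line and 20.5 and 61.6 in the WT line, under the filter. Serpinh1, A2m, Spock1 and Spock2 made up the rest of the list, of which Serpinh1 alone was kept, with differences of 0.21 and -0.16. Serpinh1 is a collagen chaperone and not a metalloprotease inhibitor.

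Of the 6 proteoglycan and link genes tied to aggrecanase action, 2 were kept, and neither differed 2-fold. Versican (Vcan), a substrate of Adamts1, read 295.5 and 307.6 in the R150C line (PTHrP, carrier) and 404.3 and 406.8 in the WT line (PTHrP, control), with differences of -0.30 in control medium and -0.46 under PTHrP. Both R150C arrays lay below both WT arrays, by less than 2-fold. Perlecan (Hspg2) differed by 0.23 and 0.01. Aggrecan (Acan) read 41.7 and 36.6 in the R150C line and 19.5 and 37.8 in the WT line, under the filter, as were Bcan, Ncan and Hapln1, which read at most 39.6 on any array. Of 22 collagens and other matrix substrates on the array 17 were kept, and 0 were at least 2-fold apart in the same direction in both media. Their median difference was 0.36 in control medium and -0.18 under PTHrP.

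Among 12 kept activators, anchors and clearance receptors, Cd44, a hyaluronan receptor that can hold Mmp9 at the cell surface, was the one at least 2-fold apart in both media, beside 1.61% of all kept genes that were higher in both. It read 944.5 and 945.8 in the R150C line (PTHrP, carrier) and 385.1 and 452.3 in the WT line (PTHrP, control), with differences of 1.13 and 1.23. Furin, the proprotein convertase that activates Mmp14 and Adamts proenzymes, differed by 0.90 in control medium and 0.18 under PTHrP. Lrp1, the endocytic receptor that clears Adamts5 and Timp3, differed by 0.37 and 0.13. Bsg, known as the Mmp inducer Emmprin, differed by -0.48 and -0.52.

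Of 12 kept transcription factors that act on protease promoters, 4 passed 2-fold upwards in both media and 1 downwards, beside 1.61% and 0.323% of all kept genes. This list was written with earlier results of the same arrays known, so nothing is read from these counts. Fosl1 (2.50 in control medium, 2.15 under PTHrP), Jun (1.40, 1.68) and Junb (1.96, 1.31), subunits of AP-1, and Ets1 (1.21, 1.13) were higher, and Fos (-1.06, -1.33) was lower. The Mmp3 and Mmp13 promoters hold AP-1 matches. Both genes lay under the filter in both lines and could not be ordered, and a link between these factors and any member was not tested.

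**Figure D5:**
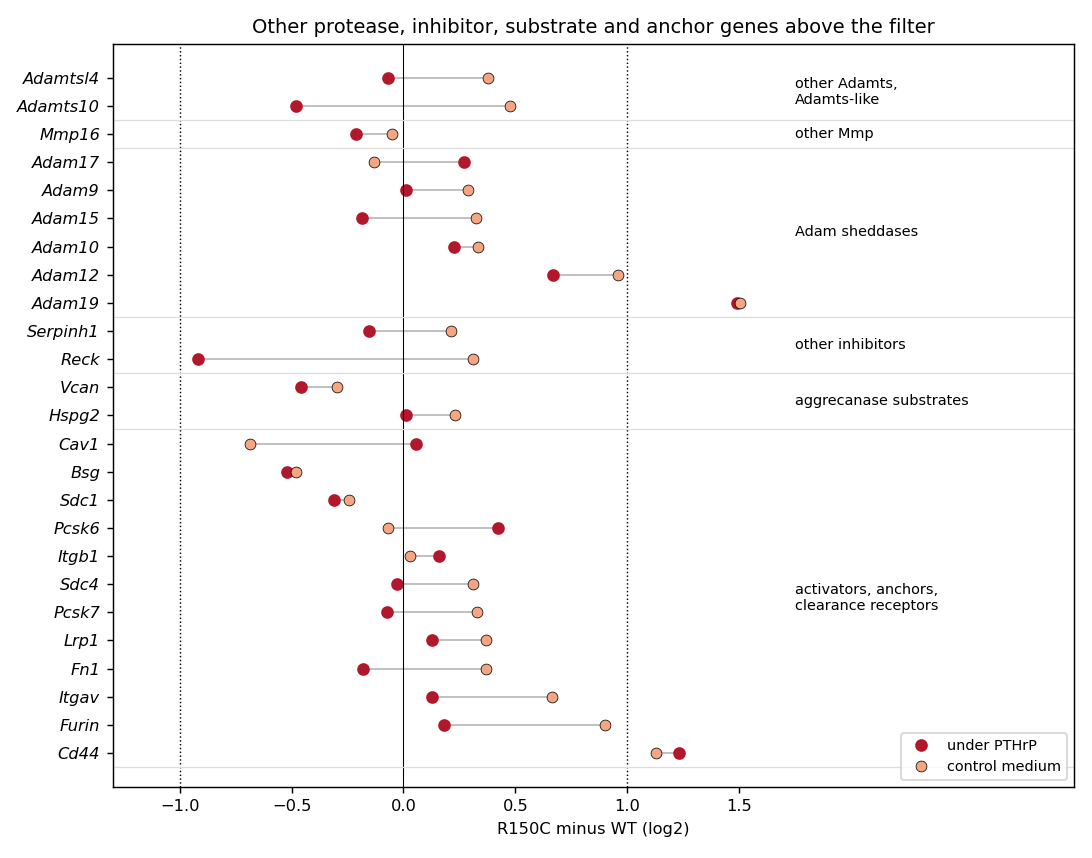
Difference between the R150C and WT lines (log2) under PTHrP (dark points) and in control medium (light points) for the 25 kept genes of the 6 lists of other proteases, other inhibitors, aggrecanase substrates and activators or anchors, without the collagens and other matrix substrates, with dotted lines at 2-fold. Adam19 (1.49 under PTHrP, 1.503 in control medium) and Cd44 (1.23 under PTHrP, 1.13 in control medium) lie past 2-fold in both media.

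The 5 kept genes with the pattern nearest to Adamts1, by Euclidean distance between log2 values over the 4 arrays after centring each gene on its own mean, were Dusp1 (distance 0.51), Rspo2 (0.52), Trib3 (0.53), Trp53inp1 (0.62) and Txnip (0.65), beside a median distance of 2.03 over 6196 genes. With 4 arrays this says that these genes too were low in the R150C line, and no more.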

How the data were processed

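Biotin-labelled RNA of 4 cultures was hybridised to 1-colour Affymetrix arrays. The deposited values are linear intensities per probe set that the authors made, per the submitters' processing notes, in Affymetrix Expression Console. Its version and summarisation are not given in the sources. The mean after trimming the top and bottom of each array was 150.1 in all 4, so the deposited intensity values carry a global scaling. Symbols come from the platform annotation, for the 20380 probe sets with 1 symbol, updated through Entrez identifiers (20351 matched, RefSeq GRCm38.p6). The 64 control probe sets were left out, as were 691 with several symbols and 1555 with none.

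Values were analysed as log2(intensity + 16) with Python 3.11.15, NumPy 2.4.6 and pandas 2.3.3, each array centred on its median. Contrasts are differences between single arrays, so no test was run and precision is limited by their number. The calculation was checked on simulated data. Scaling, pseudocount, filter, probe set rule and fold were varied in 9 alternatives. The genes and lists were chosen with earlier results of these data known, so nothing is read from the counts within them. Named genes are the 10 members and, from the other lists, kept genes at least 2-fold apart between the lines in both media or after PTHrP, all aggrecanase substrates, Timp4 and Reck. Furin, Lrp1, Bsg and the rest of the inhibitor list were named after their values were seen.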

Additional observations from a re-analysis of the deposited data

Results flagged for a closer look

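The PTHrP differences of the 10 genes and of the 11 kept genes of the other Adamts, Mmp, Adam and inhibitor lists were compared between the lines. In 3 of these genes they had opposite signs, each by more than the SD of 0.25 (log2) given above. The share of all kept genes with such a pattern was not counted, so nothing is read from the 3. The matrix, factor and marker lists, which hold further such genes (Col2a1 and Eln among them), were not part of this comparison. The PTHrP differences were -0.78 in the R150C line and 0.79 in the WT line for Mmp3 (log2). They were -0.47 and 0.49 for Adamts10, and -0.69 and 0.54 for Reck. The difference between the lines was not tested, with 1 array per group. Mmp3 lies under the filter, with signals from 8.2 to 34.1. The WT values should be read against the shift of 0.22 of all kept genes.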

How the results depend on the processing

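Adamts1 was at least 2-fold lower in the R150C line in both media under each alternative of scaling and pseudocount. Its difference ran from -2.23 to -1.91 in control medium and from -1.97 to -1.64 under PTHrP. The filter, fold and probe set alternatives could not move this difference, as Adamts1 has 1 probe set. In control medium the count of kept members at least 2-fold higher, 2 as reported, was 0 without centring and 0 when centred on the kept genes, and 1 after quantile normalization, with a pseudocount of 64 or when the probe sets of a gene were averaged. At 1.5-fold the count lower was 2 in control medium and 2 under PTHrP, with Adamts5 added. Without the filter the count lower under PTHrP was 2 and that of the difference between responses 1, both with the dim Mmp3 added. The median of the kept members after PTHrP in the WT line was -0.047 after quantile normalization, against 0.24 as reported. In all, 125 of 135 alternative values of the counts and medians and 315 of 330 of the single genes moved by less than the spread of 0.25 (log2) or, for counts, by 1.5 times or less. Many of the 330 were fixed in advance, because the filter and fold alternatives cannot move the difference of a single gene. Nor can averaging for a gene with 1 probe set, and the fold alternative cannot move a median. Of the single genes that moved more than that spread, all are Mmp14, Timp1, Timp2 or Timp3. No paired analysis was possible because each group has 1 array.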
